A study of Mus musculus with 2 samples.

Results

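The genes described here are 8 genes of fatty acid handling in capillary endothelium: Fabp4, Fabp5, Cd36, Gpihbp1, Rbp7, Lipg, Pparg and Aqp7. They were taken by symbol from the gene list of both libraries, where all 8 were found among 32285 genes. Their expression was described across capillary subsets, across other blood and lymphatic endothelial subsets, and between peripheral and mesenteric lymph nodes. The cells were endothelial cells sorted from mouse lymph nodes after enzymatic digestion and bead depletion of CD45+ cells, and sequenced as single cells on the 10x Genomics platform. Each of the 2 libraries held 4 pools told apart by antibody-borne tags, from the peripheral and the mesenteric nodes of wild-type (WT) mice and of mice labelled Xbp1-KO. All pools came from mice given tamoxifen, the controls included. The labels give neither the Cre line that carried the deletion, nor the number, age or sex of the animals in a pool, so p-values here measure the spread between pools, which may be technical in part.

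Capillary endothelium takes up fatty acids that lipoprotein lipase releases from circulating triglyceride. Gpihbp1 encodes the capillary protein that carries lipoprotein lipase across the cell and holds it on the luminal surface, and Cd36 encodes a membrane receptor that takes up long-chain fatty acids. Fabp4 and Fabp5 encode cytoplasmic fatty acid carriers, and Rbp7 encodes a related carrier that binds retinol. Pparg encodes a nuclear receptor that is activated by fatty acids and induces many lipid genes. Aqp7 encodes a channel for water and glycerol, and Lipg encodes endothelial lipase, which acts mainly on phospholipids of lipoproteins. These genes are best known in the capillaries of fat, heart and muscle, while lymph node vessels are better known for high endothelial venules, through which lymphocytes enter.

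Fabp4 (ENSMUSG00000062515) and Fabp5 (ENSMUSG00000027533) lie close together, at chr3:10204088-10208576 on the minus strand and chr3:10012548-10016607 on the plus strand (GRCm38, GENCODE M21), each with 4 exons. Cd36 (ENSMUSG00000002944) lies at chr5:17781690-17888801 on the minus strand, and Gpihbp1 (ENSMUSG00000022579) at chr15:75596628-75599481 on the plus strand. Rbp7 (ENSMUSG00000028996) and Aqp7 (ENSMUSG00000028427) lie on the minus strand of chromosome 4, at chr4:149449687-149454978 and chr4:41033074-41048139. Pparg (ENSMUSG00000000440) lies at chr6:115360951-115490399 on the plus strand. Fabp5 has an annotated processed copy that is not a row of the count tables, so reads shared with it make the Fabp5 counts uncertain.

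Promoter sequences (RefSeq, GRCm38.p6) were found for 4 of the 8 genes. The 250 bases before the start are shown for Cd36, Aqp7 and Pparg, whose levels were highest in the same capillary cluster, and for Rbp7, which peaked in another. They were searched on both strands for AGGTCA, the core hexamer that nuclear receptors such as the Pparg product bind, and matches are in capitals.
Cd36, chr5:17835897-17836146, minus strand: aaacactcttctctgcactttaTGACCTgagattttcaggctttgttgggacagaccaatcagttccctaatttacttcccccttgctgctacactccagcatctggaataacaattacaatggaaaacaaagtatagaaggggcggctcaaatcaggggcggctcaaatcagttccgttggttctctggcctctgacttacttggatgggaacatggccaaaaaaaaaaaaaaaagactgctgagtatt
Aqp7, chr4:41048137-41048386, minus strand: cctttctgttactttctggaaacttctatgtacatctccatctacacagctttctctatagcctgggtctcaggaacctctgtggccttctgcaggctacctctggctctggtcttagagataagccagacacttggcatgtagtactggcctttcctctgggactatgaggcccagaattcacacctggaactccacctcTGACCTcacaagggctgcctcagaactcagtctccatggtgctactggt
Pparg, chr6:115360894-115361143, plus strand: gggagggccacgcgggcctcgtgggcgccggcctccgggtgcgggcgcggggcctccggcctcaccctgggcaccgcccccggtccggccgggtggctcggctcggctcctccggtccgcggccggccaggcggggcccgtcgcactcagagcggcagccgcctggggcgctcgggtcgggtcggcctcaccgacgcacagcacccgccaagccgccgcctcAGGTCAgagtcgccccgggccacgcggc
Rbp7, chr4:149454969-149455218, minus strand: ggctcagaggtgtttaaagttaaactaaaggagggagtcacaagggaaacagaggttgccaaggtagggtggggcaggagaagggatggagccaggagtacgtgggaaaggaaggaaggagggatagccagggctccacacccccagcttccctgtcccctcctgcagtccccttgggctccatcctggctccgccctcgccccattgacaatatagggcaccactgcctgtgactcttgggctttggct
The Cd36 window held the hexamer as TGACCT, its first base at -228 from the start. That RefSeq start is not a transcript start in GENCODE M21. The Aqp7 window shown held TGACCT at -49 and the Pparg window shown AGGTCA at -28, while the Rbp7 window had no match. RefSeq gives further starts for Aqp7 and Pparg. The other Aqp7 window overlapped the one shown and held 2 matches, 1 of which was the same site. Of the other 2 Pparg windows 1 held a match and 1 held 0. Of 32851 promoter windows of the same length, 4607 (14.0%) held the hexamer.

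After barcodes with several tags or none, likely doublets and cells of low quality were left out, 9275 of 10612 barcodes remained and were clustered. The 8 genes and 64 further pathway genes were left out of the clustering, except Cav1, which is also a marker of ceiling lymphatic-like cells. The libraries held 33024170 and 14744778 unique molecular identifiers (UMIs, each standing for a captured transcript) over 7709 and 2903 barcodes, 3 of which occurred in both. Xbp1 was measured at 171 to 254 CPM (counts of a gene scaled to equal totals of all genes) in the 4 WT pools of capillary cells and at 85.6 to 128 CPM in the 4 Xbp1-KO pools. In lymphatic cells the ranges were 56.4 to 122 and 47.1 to 53.7 CPM, and counts at the 3′ end of a transcript check a deletion only in part. Xist was detected in 1.29% and 1.77% of WT cells against 82.5% and 73.1% of Xbp1-KO cells in library 1, and in 85.4% and 76.8% against 0.608% and 0.114% in library 2. The sex of the animals thus moved with genotype within a library, in opposite directions in the 2 libraries, but not with tissue.

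Clusters were named from marker genes and are called by their leading genes. The capillary class held 3487 cells in 5 clusters: a Penk and Col13a1 cluster (464 cells), an Igfbp3 and Scgb3a1 cluster (1276), a Scgb3a1 and Hspa1a cluster (1086) led in part by stress genes, a Tcf15 and Slc28a2 cluster (476) and a tip-like cluster led by Apln (185). They are called the Penk, Igfbp3, Hspa1a, Tcf15 and tip-like clusters below. A further 687 cells led by Atp1b1 and Slc14a1 were closest to capillary cells but were left unnamed. The other blood class held 530 arterial-like and 121 venous-like cells, the high endothelial-like cluster held 491 cells, and the lymphatic class held 3726 cells in 5 clusters. Counts were summed for each pool of each library, giving 8 sums per class. Capillary sums held 165 to 881 cells and 537737 to 2322678 UMIs, and other blood sums only 22 to 152 cells and 67396 to 469246 UMIs.

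Of the 8 genes, 6 were highest in the Tcf15 cluster: Fabp4, Fabp5, Cd36, Gpihbp1, Pparg and Aqp7. This cluster was led by Tcf15, a transcription factor known from capillaries of fat and heart, with Slc28a2, Lnx1, Car4, C1qtnf9, Timp4 and Lpl. Of the fixed capillary markers it held 2084 UMIs of Rgcc, 1479 of Kdr, 1038 of Cd300lg and 730 of Car4. It held few or none of the others: 31 of Scgb3a1, 16 of Ramp3, 1 of Penk and 0 of Col13a1. Its cells were shallow, with a median of 1878 UMIs, 0.50 of the median of their libraries. Levels across clusters are given as a description without a test, since the clusters were made from the same cells. Where sums with under 10 cells were left out, a mean could weigh the tissues unevenly. Of venous-like cells 22.3% were peripheral, and of Penk cluster cells 91.2%.

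**Figure D1:**
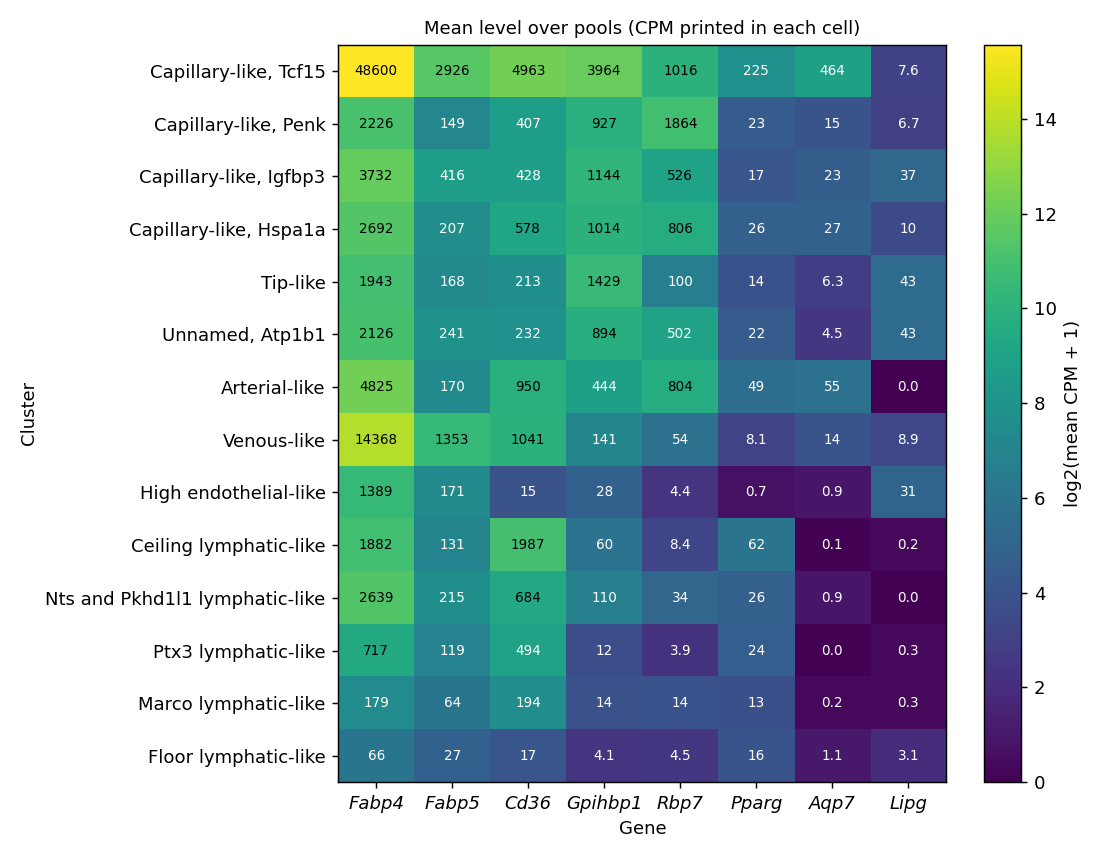
Heat map of the mean level (CPM in the cells, color as log2 of CPM + 1) of the 8 genes in 14 endothelial clusters, averaged over sums of at least 10 cells. The Tcf15 cluster holds the highest value for Fabp4, Fabp5, Cd36, Gpihbp1, Pparg and Aqp7, while Rbp7 is highest in the Penk cluster.

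Fabp4 reached 48600 ± 9315 CPM (SD, n = 8 sums) in the Tcf15 cluster, with 107 UMIs per cell, and ranged from 37484 to 59119 CPM over the pools. The lowest of these pools lay above the highest pool of each other cluster, among sums of at least 10 cells. Within a cell, Fabp4 took a median of 5.20% of all UMIs, from 1.64% at the 5th to 9.74% at the 95th percentile of cells, with a highest value of 14.3%. The venous-like cluster came next at 14368 ± 6873 CPM (n = 4), where the median cell gave 0.867% of its UMIs to Fabp4. Arterial-like (4825 ± 1531 CPM), Igfbp3 (3732 ± 1124), Hspa1a (2692 ± 1133), Nts and Pkhd1l1 lymphatic-like (2639 ± 475) and Penk (2226 ± 1488, n = 5) clusters followed. Ceiling lymphatic-like cells held 1882 ± 462 and high endothelial-like cells 1389 ± 652 CPM, and from venous-like cells downwards neighbours in this order overlapped. The lowest level was in floor lymphatic-like cells, where Fabp4 was at 66.1 ± 36.8 CPM (n = 8) and was seen in 24.4% of cells at a median depth of 5372 UMIs.

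Fabp5, the second carrier, followed the same order at its top. It reached 2926 ± 1467 CPM in the Tcf15 cluster (range 1513 to 5839, n = 8) and 1353 ± 555 CPM in venous-like cells. In the Igfbp3 cluster it was at 416 ± 151 CPM and in the Hspa1a cluster at 207 ± 135 CPM, ranges that overlapped. It was detected in 86.1% of Tcf15 cluster cells and in 8.69% of floor lymphatic-like cells, or in 74.9% and 1.68% when each cell was thinned to 1000 UMIs. Across the 14 clusters the levels of Fabp4 and Fabp5 correlated with Pearson r = 0.95, the highest value for either gene among 8637 genes. The points share libraries and depth, and no p is given.

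Cd36, the uptake receptor, was at 4963 ± 693 CPM in the Tcf15 cluster (4028 to 6109, n = 8). The next level was not in a capillary: ceiling lymphatic-like cells held 1987 ± 306 CPM, followed by venous-like (1041 ± 376) and arterial-like cells (950 ± 273). The other capillary clusters lay lower, with 578 ± 273 CPM in the Hspa1a, 428 ± 259 in the Igfbp3 and 407 ± 281 in the Penk cluster, which did not differ beyond their spread. High endothelial-like cells (15.1 ± 15.6 CPM) and floor lymphatic-like cells (17.2 ± 11) were at the bottom.

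Gpihbp1, the lipase anchor, was high in all 5 capillary clusters and low in lymphatic and high endothelial-like cells. It was at 3964 ± 574 CPM in the Tcf15 cluster (3046 to 4591), 1429 ± 277 in tip-like cells, 1144 ± 184 in the Igfbp3, 1014 ± 184 in the Hspa1a and 927 ± 327 in the Penk cluster. The unnamed cluster near capillaries held 894 ± 172 CPM and arterial-like cells 444 ± 89.2. The highest of the lymphatic clusters, led by Nts and Pkhd1l1, averaged 110 ± 77.1 CPM, and high endothelial-like cells were at 28.1 ± 17.7.

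Rbp7, the retinol carrier, had a different peak. The Penk cluster was highest at 1864 ± 683 CPM (1265 to 2949, n = 5), followed by the Tcf15 cluster at 1016 ± 525, with overlapping ranges. Hspa1a cluster and arterial-like cells were at 806 ± 363 and 804 ± 226 CPM and did not differ beyond their spread. Rbp7 was at 4.38 ± 4.54 CPM in high endothelial-like cells and at 33.9 CPM or less in the 5 lymphatic clusters.

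Pparg, the regulator, was at 225 ± 71.4 CPM in the Tcf15 cluster (115 to 319), where 31.9% of cells held a UMI. Ceiling lymphatic-like cells came next at 62.4 ± 12.8 CPM and arterial-like cells at 48.8 ± 26.8, while the Igfbp3, Hspa1a and Penk clusters lay at 17.1 to 26.5 CPM, close to the 15.8 ± 7.13 CPM of floor lymphatic-like cells. Aqp7, the glycerol channel, was at 464 ± 112 CPM in the Tcf15 cluster (228 to 608) and was detected in 54.2% of its cells, against 0.159% of floor lymphatic-like cells. Arterial-like cells held 54.6 ± 27.5 CPM and the Hspa1a and Igfbp3 clusters 27.1 ± 17.6 and 23.0 ± 14.5. In high endothelial-like cells Pparg was at 0.654 CPM and Aqp7 at 0.928 CPM.

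Lipg was the exception in the set. It was low throughout, at 7.57 ± 9.58 CPM in the Tcf15 cluster (8 UMIs in all), and highest in the unnamed cluster near capillaries (43.2 ± 49.5), in tip-like cells (42.5 ± 39.9), in the Igfbp3 cluster (36.6 ± 10.5) and in high endothelial-like cells (31.4 ± 32.4). These levels did not differ beyond their spread. No UMI of Lipg was found in 530 arterial-like or 534 Nts and Pkhd1l1 lymphatic-like cells, which allows a share of cells with a UMI of up to 0.566% and 0.562% (3 counts of the cells, counting error only).

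The Tcf15 cluster made up 13.7% of capillary cells and 9.69% of their UMIs. It supplied 66.9% of the capillary UMIs of Aqp7, 64.0% of Fabp4, 53.3% of Pparg, 52.5% of Fabp5 and 51.8% of Cd36. Its part was smaller for Gpihbp1 (28.5%), Rbp7 (13.3%) and Lipg (4.30%). Its share of capillary cells differed between pools. In library 1 it was 9.24% and 12.7% in the peripheral and mesenteric WT pools, and 21.8% and 12.1% in the peripheral and mesenteric Xbp1-KO pools. In library 2 these pools had 24.2%, 11.6%, 19.0% and 4.71%. The peripheral share was the higher in 3 of the 4 pairs of peripheral and mesenteric pools and the lower in WT cells of library 1. The lowest share, in the mesenteric Xbp1-KO pool of library 2, went with the lowest class level of Fabp4, 4519 CPM.

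**Figure D2:**
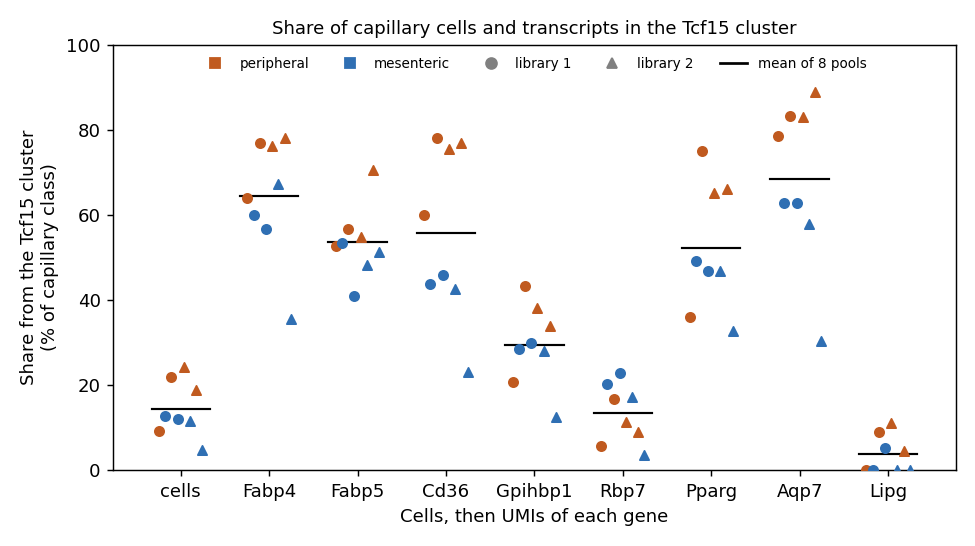
Share of capillary cells and of the capillary UMIs of each gene (percent) that came from the Tcf15 cluster, for each of the 8 pools. The cluster held 4.71% to 24.2% of capillary cells, and in the pool with the lowest share it still gave 35.6% of the Fabp4 UMIs.

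Markers of adipocytes, which also express Fabp4, Cd36, Pparg, Aqp7 and Lpl, had few UMIs in the Tcf15 cluster, but more than in the other capillary clusters. Of 7 markers, 6 had a UMI: 35 of Cfd, 4 each of Adipoq, Cidec and Retn, and 1 each of Plin1 and Lep, with 0 of Plin4. Of these UMIs, 29 came from the mesenteric Xbp1-KO pool of library 1. The summed level of the markers was 48.6 CPM in the Tcf15 cluster, against 0.606 CPM or less in each other capillary cluster. By pool, the summed level in the Tcf15 cluster was 0 to 301 CPM in mesenteric and 0 to 46.2 CPM in peripheral pools. In the whole capillary class it was 0 to 32.9 CPM in mesenteric and 0 to 5.83 CPM in peripheral pools. The part of adipocyte RNA in the levels was not tested.

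By the same measure of likeness over clusters, the genes closest to Aqp7 were Tcf15 (r = 0.95), Fam89a (0.93) and Fryl (0.92). Fabp4 was closest to Fabp5, Cav1 and Gm13056 (0.95, 0.91 and 0.91), and Fabp5 to Fabp4, Cyb5r1 and Gm13056 (0.95, 0.88 and 0.87). Cd36 was closest to Ctnnb1, Tbl1x and Lrp5, each at 0.92. Gpihbp1 was closest to Ctnnbip1, Nes and Slc39a10 (0.96, 0.96 and 0.95), and Rbp7 to Mcf2l, Dab2ip and Cxcl12, each at 0.96. Pparg was closest to Gpr160, Xiap and Ppm1d (0.91, 0.90 and 0.89). Among the genes of the set, Gpihbp1 and Rbp7 were close to each other (0.92), and Cd36 was at 0.78 with Pparg. The lowest value among them was 0.31, between Fabp5 and Pparg. Each r is over 14 clusters and describes these libraries.

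Peripheral and mesenteric nodes were compared in summed counts with edgeR's quasi-likelihood test, with Benjamini-Hochberg adjustment over all genes tested and calls at an adjusted p under 0.05. In the capillary class none of the 8 genes was called, against 82 of 9298 genes tested (0.882%). Fabp5 and Cd36 had the lower values in peripheral nodes. Fabp5 was at 268, 445, 437 and 285 CPM in the peripheral pools (WT and Xbp1-KO of library 1, then of library 2) and at 836, 809, 544 and 488 CPM in the mesenteric pools in the same order. The tissues did not overlap, and the peripheral pool was lower in 4 of 4 pairs. The log2 fold change, peripheral over mesenteric, was -0.93 ± 0.23 (SE) with an adjusted p of 0.117. With the library as a block, which pairs pools that were captured together, it was -0.91 with an adjusted p of 0.00808, where 304 genes (3.27%) were called. Cd36 was at 540, 913, 839 and 764 CPM in peripheral and 1308, 1200, 1146 and 784 CPM in mesenteric pools, lower in 4 of 4 pairs, with overlapping ranges. Its log2 fold change was -0.56 ± 0.18 (adjusted p = 0.277, and 0.0375 with the library block).

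Rbp7 had the opposite sign, at 894 ± 263 CPM in peripheral and 667 ± 206 CPM in mesenteric pools (SD, n = 4), higher in 4 of 4 pairs. Its log2 fold change of 0.41 ± 0.26 had an adjusted p of 0.850. It was 0.0814 with the library block and 0.00165 with each library and genotype as a pair, where 446 genes (4.8%) were called. Lipg was at 24.7 ± 7.71 and 14.4 ± 4.50 CPM (log2 fold change 0.76 ± 0.27, adjusted p = 0.373). Fabp4 (-0.16 ± 0.25), Gpihbp1 (-0.24 ± 0.16), Pparg (0.35 ± 0.25) and Aqp7 (0.03 ± 0.29) had no call in either fit. Their signs were not stable for all: Fabp4 was at 0.26 without library 1 and -0.52 without library 2. Aqp7 was at -1.57 without the Tcf15 cluster and -0.74 in cells with at least 1000 genes, where Pparg was at -0.29. The clusters behind these sums differed: 91.2% of Penk cluster cells were peripheral, against 58.0% in the Tcf15, 43.7% in the Igfbp3 and 21.7% in the Hspa1a cluster. The sums of the class thus held different mixes of clusters in the 2 tissues, and the 3 clusters with at least 10 cells in all 8 sums were tested on their own.

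Within the Igfbp3 cluster, Cd36 was lower in peripheral nodes. It was at 187, 171, 201 and 244 CPM in the peripheral pools (WT and Xbp1-KO of library 1, then of library 2) and at 796, 649, 695 and 483 CPM in the mesenteric pools. No peripheral pool reached the lowest mesenteric pool. The log2 fold change was -1.72 ± 0.19 with an adjusted p of 8.62e-06, among 38 of 5311 genes called (0.715%, with 0.414% called lower). Fabp4 did not overlap either, at 2561 to 3400 CPM in peripheral and 3719 to 5579 CPM in mesenteric pools. Its log2 fold change of -0.68 ± 0.16 had an adjusted p of 0.0583, and 1.02e-12 with the library block, where 135 genes (2.54%) were called. With that block Fabp5 (-0.66, adjusted p = 0.000839) and Gpihbp1 (-0.35, adjusted p = 0.0236) were also lower. Without it they were at -0.64 ± 0.24 (adjusted p = 0.472) and -0.34 ± 0.16 (adjusted p = 0.752). Rbp7 was at 499 ± 73.0 and 553 ± 113 CPM, a difference within the spread of the pools.

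The Hspa1a cluster showed lower Fabp5 and Cd36 in peripheral nodes. Fabp5 was at 146, 100, 106 and 75.2 CPM in the peripheral pools and at 293, 485, 233 and 221 CPM in the mesenteric pools, in the order above. Its log2 fold change was -1.56 ± 0.27 (adjusted p = 0.00274), among 66 of 4606 genes called (1.43%, with 0.782% called lower). Cd36 was at 582, 405, 260 and 177 CPM in peripheral and 904, 820, 821 and 653 CPM in mesenteric pools, a log2 fold change of -1.22 ± 0.24 (adjusted p = 0.00895). For both genes every mesenteric pool lay above every peripheral pool. With the library block, where 160 genes (3.47%) were called, Fabp4 was also lower (-0.60, adjusted p = 0.000202) and Rbp7 higher (0.62, adjusted p = 0.000214). Without the block these were at -0.57 ± 0.26 (adjusted p = 0.546) and 0.64 ± 0.27 (adjusted p = 0.456). Aqp7 was at -1.43 ± 0.53 here and at -1.14 ± 0.54 in the Igfbp3 cluster, with no call in either fit.

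In the Tcf15 cluster Cd36 was not called between tissues. It was at 6109, 5399, 4028 and 4414 CPM in peripheral and 5261, 5220, 5029 and 4241 CPM in mesenteric pools, which overlapped throughout (log2 fold change 0.01 ± 0.19). Rbp7 was at 874 ± 441 CPM in peripheral and 1159 ± 628 CPM in mesenteric pools, lower in 3 of 4 pairs, with overlapping ranges. Fabp4 (47937 ± 11725 and 49264 ± 7989 CPM), Gpihbp1 (3799 ± 691 and 4130 ± 468) and Aqp7 (513 ± 69.2 and 415 ± 134) also overlapped between tissues. Fabp5 did not: it was at 2668, 1908, 1528 and 1513 CPM in peripheral and 4115, 3145, 2696 and 5839 CPM in mesenteric pools. Its log2 fold change of -1.05 ± 0.24 had an adjusted p of 0.0837, and 0.0199 with the library block. In this cluster 4 of 1931 genes tested (0.207%) were called, and 16 (0.829%) with the block.

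**Figure D3:**
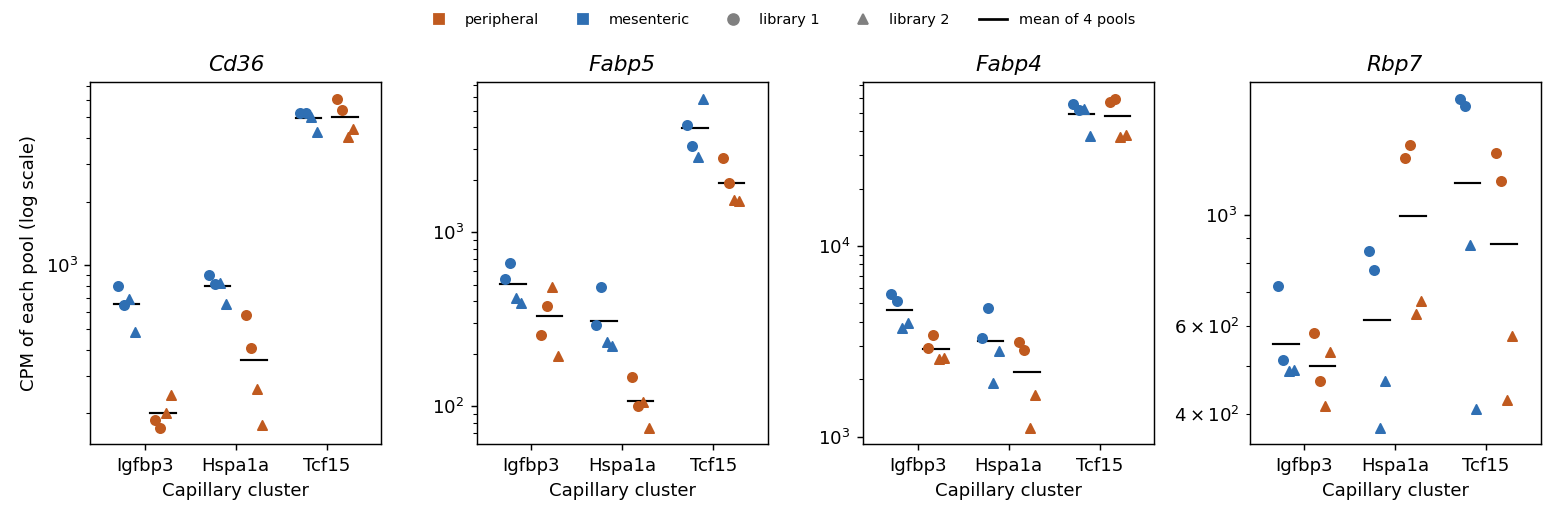
Level (CPM, log axis) of Cd36, Fabp5, Fabp4 and Rbp7 in each pool of the Igfbp3, Hspa1a and Tcf15 clusters, with peripheral and mesenteric pools side by side and a bar at each mean. Peripheral and mesenteric pools separate for Cd36 in the Igfbp3 and Hspa1a clusters but overlap at 4028 to 6109 CPM in the Tcf15 cluster.

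The difference between clusters was tested itself, in comparisons added after the values had been seen. Sums of both clusters came from the same pools and entered without pairing by pool. The tissue difference of Cd36 in the Igfbp3 cluster minus that in the Tcf15 cluster was -1.73 ± 0.26 on the log2 scale (edgeR, adjusted p = 0.00168), among 5 of 4720 genes called (0.106%). Without library 1 it was -1.20 with an adjusted p of 0.0846. For the Hspa1a cluster minus the Tcf15 cluster the value was -1.22 ± 0.32 (3 of 4658 genes or 0.0644% called, adjusted p = 0.341, and 5.38e-05 with the library block, where 18 genes or 0.386% were called). Rbp7 was called there with the block too (1.03, adjusted p = 0.00344). For Fabp5 the same differences were 0.41 ± 0.36 and -0.49 ± 0.38, and neither was called in either fit. Without library 1 they were 1.12 and 0.039, and without library 2 -0.26 and -0.96. With the library block, where 31 genes (0.657%) were called, Fabp4 was also called in the first of them (-0.61, adjusted p = 0.000897), against -0.64 with an adjusted p of 0.746 without it. Cells of the Igfbp3 and Hspa1a clusters that held a UMI of Tcf15 (294 of 1276 and 360 of 1086) were also left out. However, Tcf15 itself was lower in the peripheral pools of both. At the median depths of 2437 and 2786.5 UMIs, a cell that expresses Tcf15 can hold no UMI of it, so such cells can remain. Cd36 then gave -1.73 (adjusted p = 9.5e-05, with 0.965% of genes called) and -1.24 (adjusted p = 0.0128, with 1.45% called), while Fabp5 in the Hspa1a cluster gave -1.13 (adjusted p = 0.0558). In the capillary class without the Tcf15 cluster, Cd36 was called at -1.70 (adjusted p = 3.27e-05, with 1.34% of genes called), against -0.56 with it. The clusters left in this class still differed in peripheral share, with 91.2% of Penk and 21.7% of Hspa1a cluster cells.

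**Figure D4:**
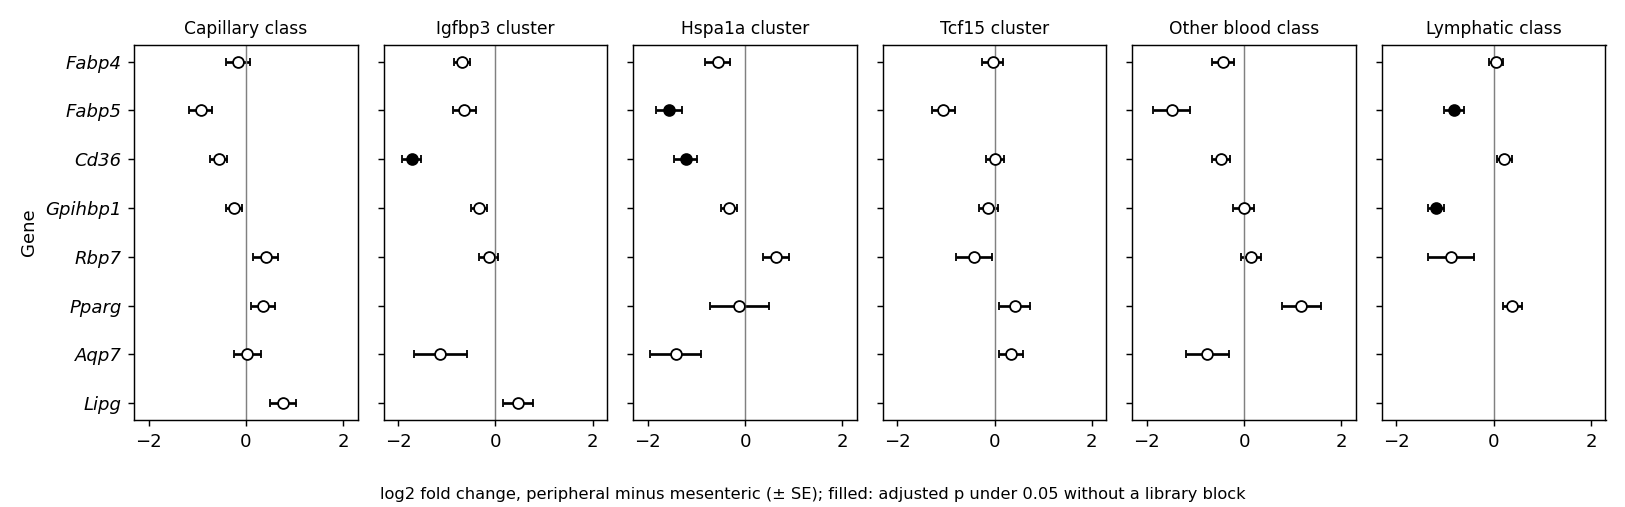
Log2 fold change, peripheral over mesenteric, with its SE for each gene in 3 classes and 3 capillary clusters (edgeR fit without the library block). Filled points have an adjusted p under 0.05: Cd36 at -1.72 and -1.22 in the Igfbp3 and Hspa1a clusters, Fabp5 at -1.56 in the Hspa1a cluster, and Gpihbp1 and Fabp5 at -1.18 and -0.81 in lymphatic cells.

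Of 64 other genes of lipid uptake, oxidation, storage and regulation, 47 were tested in the capillary class. None was higher and 3 were lower in peripheral nodes, against 0.882% of all genes called, with a list median log2 fold change of -0.03 beside 0.0007 over all genes tested. Angptl4, an inhibitor of lipoprotein lipase, was at -1.36 ± 0.22 (adjusted p = 0.0134), and Mgll, which splits monoacylglycerol into glycerol and fatty acid, at -0.78 ± 0.15 (adjusted p = 0.0262). Angptl4 belongs to the 10 tested genes of uptake and transport and Mgll to the 8 of storage and lipolysis. None of 16 genes of activation and oxidation, 11 regulators or 2 relatives of the members was called. With the library block 3 were higher (Lpl at 1.77, Slc27a3 at 0.79 and Nrp1 at 0.50) and 7 were lower, adding Pdk4 (-1.28), Lipe (-0.51), Plin2 (-0.42) and Lipa (-0.41), against 3.27% of all genes called.

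Within clusters, Mgll was lower in the peripheral pools of the Igfbp3 cluster (-1.27 ± 0.20, adjusted p = 0.000721) and of the Hspa1a cluster (-0.80 ± 0.18, adjusted p = 0.0217). Tcf15 was lower in both, at -2.0 ± 0.24 and -2.05 ± 0.26. In these clusters 2 of 29 and 3 of 31 tested genes of the list were called, all lower, against 0.414% and 0.782% of all genes called lower, and the third of the Hspa1a cluster was Angptl4 (-4.40 ± 0.89). In the Tcf15 cluster 1 of 19 was called, against 0.207% of all genes tested: Lpl, lipoprotein lipase itself, which was higher in peripheral nodes (1.55 ± 0.26, adjusted p = 0.0202). Without library 1 edgeR called 0 of 1366 genes in this cluster, 80 having an unadjusted p under 0.05, so this call was lost.

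In arterial- and venous-like cells none of the 7 members tested was called between tissues, against 10 of 4679 genes (0.214%). Fabp5 was at 151, 436, 74.2 and 134 CPM in peripheral and 795, 749, 195 and 327 CPM in mesenteric pools, lower in 4 of 4 pairs but overlapping, since library 1 was higher than library 2 in both tissues. Its log2 fold change was -1.49 ± 0.39 (adjusted p = 0.133, and 5.66e-08 with the library block, where 103 genes or 2.2% were called). Fabp4 was lower in 3 of 4 pairs and higher in 1, and Cd36 was lower in 4 of 4, with overlapping ranges for both. With the library block Fabp4 (-0.43, adjusted p = 0.000925) and Cd36 (-0.48, adjusted p = 0.0125) were called lower. With each library and genotype as a pair neither Fabp4 nor Cd36 was called (adjusted p = 0.112 and 0.0660). Their values without a block were -0.44 ± 0.22 and -0.47 ± 0.19, with adjusted p of 0.825 and 0.610. Pparg had the opposite sign, at 66.3, 81.8, 44.5 and 33.4 CPM in peripheral and 27.7, 20.3, 26.6 and 27.0 CPM in mesenteric pools. These did not overlap, but the log2 fold change of 1.17 ± 0.40 had an adjusted p of 0.379 (0.161 with the block). Only 22.3% of venous-like cells were peripheral, and venous-like cells held the higher Fabp4 and Fabp5. In arterial-like cells alone Fabp5 was at -1.05 (adjusted p = 0.536).

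In lymphatic cells Gpihbp1 and Fabp5 were lower in peripheral nodes, 2 of the 6 members tested, where 512 of 10683 genes (4.79%) were called and 2.88% were called lower. Gpihbp1 was at 25.6, 17.9, 24.5 and 24.9 CPM in peripheral and 75.0, 38.9, 58.7 and 29.8 CPM in mesenteric pools, without overlap (log2 fold change -1.18 ± 0.17, adjusted p = 0.00119). Fabp5 was at 81.0, 59.4, 61.9 and 79.9 CPM in peripheral and 156, 135, 75.1 and 86.5 CPM in mesenteric pools, lower in 4 of 4 pairs (-0.81 ± 0.20, adjusted p = 0.0342). Both calls were lost without library 1, at -0.73 (adjusted p = 0.286) and -0.24 (adjusted p = 0.853), and Fabp5 was not called in cells with at least 1000 genes (-0.61, adjusted p = 0.0626). The summed level of leukocyte and macrophage markers was 8.84 to 15.4 CPM in peripheral and 4.17 to 8.0 CPM in mesenteric pools of this class, and their part in the result was not tested. The lymphatic clusters differed in peripheral share, from 64.0% of Nts and Pkhd1l1 to 83.2% of ceiling lymphatic-like cells. The Nts and Pkhd1l1 cluster held the highest Gpihbp1 and Fabp5 among them (110 and 215 CPM). The part of this mix in the class differences was not tested. In ceiling lymphatic-like cells alone Gpihbp1 was at -1.49 (adjusted p = 0.00318, with 1.67% of genes called) and Fabp5 at -0.68 (adjusted p = 0.251). These Gpihbp1 levels lie far below the 1086 CPM of the lowest capillary pool, and floor lymphatic-like cells averaged 4.09 ± 2.41 CPM. Fabp4 (0.05 ± 0.14) and Cd36 (0.22 ± 0.16) did not differ between tissues beyond their spread, and Cd36 was at -0.23 in ceiling lymphatic-like cells alone. With the library block 12.7% of genes were called and no further member was. With each library and genotype as a pair 11.4% were called, and Rbp7 was lower (-1.14, adjusted p = 0.0345).

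**Figure D5:**
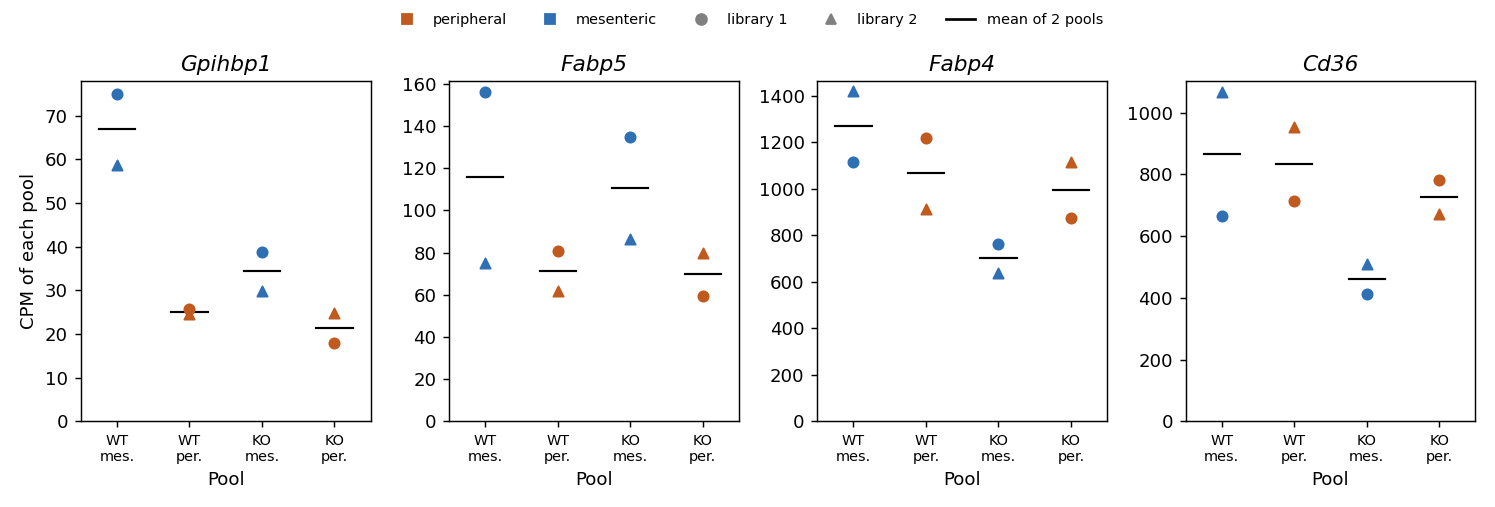
Level (CPM) of Gpihbp1, Fabp5, Fabp4 and Cd36 in the lymphatic class of each pool, by tissue and genotype, with a bar at the mean of the 2 libraries. Gpihbp1 lies at 17.9 to 25.6 CPM in peripheral and 29.8 to 75.0 CPM in mesenteric pools, while Fabp4 and Cd36 overlap.

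The tissue difference was not shown to differ between capillary and lymphatic cells for any of the genes in the fit without the block, where 74 of 10965 genes (0.675%) were called. For Gpihbp1 the difference of differences was 0.92 ± 0.25 (adjusted p = 0.111, and 0.00963 with the library block, where 306 genes or 2.79% were called). For Cd36 it was -0.77 ± 0.26 (adjusted p = 0.257, and 0.0494 with the block). With capillary cells of the Tcf15 cluster left out, a setting chosen after seeing the data, it was -1.90 (edgeR, adjusted p = 0.000158). That fit called 110 of 10847 genes, and the capillary clusters left in it still differed in their share of peripheral cells. For Fabp5, which had the lower mean in peripheral nodes in both classes, it was -0.13 ± 0.35 (adjusted p = 0.980). Of the other pathway genes, 51 were tested, and Lpl (2.49 ± 0.50, adjusted p = 0.0233) was among the 3 called. In lymphatic cells 50 of the 64 were tested, with 1 higher and 10 lower, against 4.79% of all genes called, Angptl4 (-1.07 ± 0.13) and Mgll (-0.93 ± 0.13) among the lower.

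Between genotypes none of the 8 genes was called in the capillary class, where the edgeR test called 0 of 9298 genes (0%), 220 having an unadjusted p under 0.05. DESeq2 called 0 as well, 56 having such an unadjusted p. In the fit with the block, 7 genes (0.0753%) were called and none was a member. Fabp4 was at 4519 to 10164 CPM in Xbp1-KO and 4732 to 10060 CPM in WT pools (log2 fold change, Xbp1-KO over WT, 0.09 ± 0.25). Its sign depended on the library, at -0.42 (adjusted p = 0.00102, with 1.24% of genes called) without library 1 and 0.53 (adjusted p = 0.352) without library 2. Within a library, genotype and sex cannot be told apart. In lymphatic cells edgeR called 0 of 10683 genes (0%) without the block, 630 having an unadjusted p under 0.05, and 88 (0.824%) with it, while DESeq2 called 9. Cd36 was at 713, 664, 952 and 1069 CPM in the WT pools (peripheral and mesenteric of library 1, then of library 2) and at 783, 411, 670 and 511 CPM in the Xbp1-KO pools. These ranges overlapped, with the lowest values in the mesenteric Xbp1-KO pools. Ceiling lymphatic-like cells, the lymphatic cluster with the most Cd36, were 24 of 171 and 42 of 222 lymphatic cells there (libraries 1 and 2). In the mesenteric WT pools they were 102 of 475 and 12 of 65. The mix of clusters thus differed between pools, and its part in the genotype values was not tested. Cd36 (-0.57 ± 0.16), Fabp4 (-0.51 ± 0.14) and Gpihbp1 (-0.72 ± 0.16) had adjusted p of 0.540, 0.540 and 0.285 without the block and 0.0165, 0.0361 and 0.0226 with it, where 0.44% of genes were called lower. In ceiling lymphatic-like cells alone they were at -0.19, -0.15 and -0.08. The tissue difference in capillaries was not shown to differ between genotypes for any member. EdgeR called 0 genes (0%) there in either fit, 192 having an unadjusted p under 0.05 when no block was fitted, and DESeq2 called 0. Of the other pathway genes, none was called between genotypes in either class without the block.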

How the data were processed

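The deposited files are raw UMI counts per gene and cell barcode with tag counts beside them; they were made with Cell Ranger, version 6.0.1 per the file headers and 6.1 per the submitters' processing notes, which name build mm10. The labels name a v2 kit in the protocol and 3′ v3 chemistry in the design. Of the 32285 gene identifiers, 99.6% were found in GENCODE M21.

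Tags were called with HTODemux (Seurat 5.3.0), and Scrublet (scanpy 1.11.5, 0.8% per 1000 cells) marked 65 and 4 doublets among single-tag barcodes of the 2 libraries. It marked only 25.5% and 4.62% of the barcodes with several tags, so doublets within a pool remain in part. Cells needed 500 genes and no more than 10% of UMIs from mitochondria. Clustering used 1974 variable genes, 30 components, 15 neighbours and Leiden resolution 1. The 8 genes and the 64 pathway genes were left out of it, except Cav1, which is also a marker. Clusters were named from marker lists. Mural- and fibroblast-like (121 cells), leukocyte-like (42), dividing (40) and unnamed Prtn3 and Mpo cells (30) were left out of the classes.

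Summed counts were tested in R 4.3.3 with edgeR 4.0.16 (quasi-likelihood, TMM, filterByExpr, 4 group means, 8 sums per class), and with DESeq2 1.42.0 as an alternative. With 8 sums, the size of a small adjusted p with the library block is not read as the strength of a difference. Fits without 1 library used tissue and genotype as additive terms, since group means would leave no residual degrees of freedom. The test was tried on simulated data first, a trial whose outcome is not given here and supports no result. The library number pairs pools, since a library was captured and prepared as a whole. In the capillary class, pools of the same library deviated together from the group means (Pearson r across genes of 0.13 to 0.39). In other blood cells r was 0.096 to 0.24, and in lymphatic cells 0.051 to 0.22. In capillary cells r was highest between the 2 tissues of the same genotype (0.30 for WT and 0.39 for Xbp1-KO). The same held in lymphatic cells (0.22 and 0.22). The library block does not take in that pairing, while the fit with library and genotype pairs does.

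The genes, the pathway lists and the comparisons were chosen with earlier results of these data known. Named genes are the 8 members, the pathway genes called in capillary comparisons (at most 10 per comparison, by size of change, 1 of which is not reported here), and the 3 genes with the highest Pearson r to each member that reached 50 CPM in a cluster. Pathway genes named with the library block or in lymphatic cells were chosen after their values were seen. Other alternatives were the RLE scaling, no filter on low counts, a hashtag ratio rule, Leiden resolution 0.6, at least 1000 genes per cell, sums thinned to the smallest, and classes with single clusters added or left out.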

Additional observations from a re-analysis of the deposited data

Results flagged for a closer look

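Among 84 groups of 4 pools, 5 held a pool far from the other three, and chance alone flags about 1 in 20 groups. In mesenteric arterial- and venous-like cells, Pparg was lowest in Xbp1-KO cells of library 1, at 20.3 CPM. In peripheral lymphatic cells, Gpihbp1 was lowest in Xbp1-KO cells of library 1, at 17.9 CPM. In mesenteric cells of the Igfbp3 cluster, Rbp7 was highest in WT cells of library 1, at 722 CPM, and Aqp7 was lowest in Xbp1-KO cells of library 1, at 6.49 CPM. In peripheral cells of the Hspa1a cluster, Pparg was highest in WT cells of library 1, at 66.6 CPM.

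For the tissue difference of Cd36 between capillary clusters, the log2 fold change, peripheral over mesenteric, in the Igfbp3 cluster minus that in the Tcf15 cluster was -1.73 (edgeR, adjusted p = 0.00168). This comparison was added after the values had been seen. Without library 1 it was -1.20 (adjusted p = 0.0846), and the Hspa1a minus the Tcf15 cluster was not called (-1.22, adjusted p = 0.341) without the library block.

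The 121 mural- and fibroblast-like cells entered no comparison, yet they held 1343 UMIs of Fabp4, 95 of Cd36, 64 of Gpihbp1, 56 of Fabp5, 54 of Rbp7 and 11 of Pparg. The same cells held 106 UMIs of Kdr, 62 of Rgcc and 39 of Cd300lg, which are capillary markers, and 13 of Plin1, which coats lipid droplets. The part of capillary RNA in these counts was not tested.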

How the results depend on the processing

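Over all alternatives, 423 values of members reported here were recomputed: 327 kept their direction and side of the threshold, 68 passed it newly, 6 lost it and 22 changed sign. For the other members in the comparisons where only some are reported, 285 further values were recomputed. Of these, 61 changed sign and 2 changed their call. The library as a replicate block raised the number of genes called from 82 to 304 in capillary, 10 to 103 in other blood and 512 to 1362 in lymphatic cells, from 74 to 306 for capillary minus lymphatic cells, from 0 to 7 and 88 for genotype in capillary and lymphatic cells, and from 38 to 135, 66 to 160 and 4 to 16 in the Igfbp3, Hspa1a and Tcf15 clusters. For the Igfbp3 and Hspa1a minus the Tcf15 cluster it gave 31 and 18 in place of 5 and 3. With library and genotype pairs as a replicate block, capillary, other blood and lymphatic cells gave 446, 72 and 1222. The library block changed no call of a member other than those given with it in the report. Leaving out each library in turn gave 206 to 269, 2 to 16 and 225 to 1141 in these classes, 60 to 120 for capillary minus lymphatic cells, 19 to 100 and 30 to 50 for genotype, 61 to 107, 47 to 150 and 0 to 17 in the 3 clusters, and 5 to 24 and 0 to 31 for their differences. No leave-one-out fit was possible for tissue by genotype, which needs both libraries.

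Without a filter on low counts the tissue counts were 270, 32 and 889, genotype gave 21 and 73, tissue by genotype 7, and capillary minus lymphatic cells 226. Thinned sums gave 50, 4 and 177, with 29 for capillary minus lymphatic cells and 1 for genotype in lymphatic cells. DESeq2 called 6 genes in other blood, 340 in lymphatic cells and 9 for genotype in lymphatic cells. Other blood gave 2 at Leiden resolution 0.6 and 2 in arterial-like cells alone. Ceiling lymphatic-like cells alone gave 132 for tissue and 1 for genotype.

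Among the 423 values of reported members, signs changed as follows, and the cause was not tested. For tissue in capillaries, Aqp7 was at -0.000445 and -0.00163 with the 2 replicate blocks, 0.27 and -0.28 without replicates 1 and 2, -0.30 at Leiden resolution 0.6, -0.74 at 1000 genes per cell, -0.35 with the unnamed cluster added and -1.57 without the Tcf15 cluster. Pparg was at -0.29 at 1000 genes per cell and -0.092 without the Tcf15 cluster, and Fabp4 at 0.26 and -0.52 without replicates 1 and 2. For genotype there, leaving out replicates 1 and 2 gave -0.42 and 0.53 for Fabp4 and -0.30 and 0.87 for Lipg, and Fabp4 at -0.018 at 1000 genes per cell. In ceiling lymphatic-like cells alone Cd36 was at -0.23 and Pparg at -0.14 between tissues. Fabp5 for capillary minus lymphatic cells was at 0.023 with thinned sums. Pparg in the Hspa1a cluster was at 0.032 without cells that hold a Tcf15 UMI. Without replicates 1 and 2, the Tcf15 cluster gave -0.15 and 0.15 for Cd36, -0.21 and 1.05 for Pparg and -0.24 and 0.13 for Fabp4, while Fabp5 gave 1.12 and -0.26 for the Igfbp3 minus the Tcf15 cluster and 0.039 and -0.96 for the Hspa1a minus the Tcf15 cluster. Fabp5 in lymphatic cells also lost its call at 1000 genes per cell, at -0.61.

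Depth limits Lipg, Pparg and Aqp7 outside the Tcf15 cluster, where sums held few UMIs, and the 2 libraries per group limit all tests. The settings that add or leave out single clusters or Tcf15-positive cells, and the differences between clusters, were chosen after seeing the data.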

Other observations

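Outside endothelium, Fabp4 was measured at 2605 ± 808 CPM (SD, n = 5 sums) in the 121 mural- and fibroblast-like cells led by Dcn and Acta2, and 71.1% of them held a UMI.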
